A study of Mus musculus with 6 samples.

Results

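The 50 genes described here encode the machinery that copies DNA in S phase: the factors that license origins, the MCM2-7 helicase and its activators, the polymerases and primase, the sliding clamp and its loader, the single-strand binding complex, the enzymes that join the lagging strand and supply nucleotides, and the factors that copy chromatin and methylation. They were chosen by gene name from the 54532 rows of a gene count table. All 50 were found, all 50 had 10 or more counts in at least 3 of the 6 libraries, and all 50 were among the 14801 genes tested. The libraries came from Gli1-CreERT2; tdTomato mice labelled as strain c57BL/6, in which tamoxifen switches on the red protein tdTomato in cells that use the Gli1 locus. Chondrocytes that were CD45-, CD31- and Ter119- were sorted at one month of age, a day after tamoxifen, into tdTomato+ cells (Gli1+, 3 libraries) and tdTomato- cells (Gli1-, 3 libraries). The labels name growth plate as the tissue, whereas the methods describe costal cartilage for this experiment. Both groups carry the same alleles and received the same treatment, so they differ by the tdTomato gate. A cell that uses Gli1 but escaped recombination sorts as Gli1-.

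DNA replication runs in steps. In G1 the origin recognition complex, CDC6 and CDT1 load the MCM2-7 ring onto DNA, and geminin later binds CDT1 so that origins are licensed once per cycle. At the start of S phase CDC45 and the GINS complex turn the ring into an active helicase, primase and polymerase alpha lay down primers, the RFC clamp loader places the PCNA ring, and polymerases delta and epsilon extend the strands. Most of these genes are transcribed in late G1 and S phase under E2F factors and fall silent when a cell leaves the cycle. In cartilage the resting zone holds slowly dividing cells and the columnar zone holds rapidly dividing ones, whereas hypertrophic chondrocytes have stopped copying their DNA.

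Gli1 itself separated the groups, with 86, 104 and 152 counts in the Gli1+ libraries and 14, 19 and 46 in the Gli1- libraries. Library totals ran from 17114101 to 18602482 counts. The first Gli1+ library had counts for 15000 genes, against 20666 to 23360 in the others. The first Gli1- library held transcripts of blood cells that the CD45 gate should remove: its 8 neutrophil markers summed to 3193 CPM (counts scaled to library size), against 9.45 to 76.9 in the other libraries. Its 4 leukocyte markers, Ptprc (CD45) among them, summed to 421 CPM there and to between 1.79 and 6.32 CPM elsewhere. Both libraries numbered 2 had the highest sums for 10 chondrocyte markers (19394 and 25734 CPM, against 6154 to 8158), and at least 9 of the 10 had counts in every library. Markers of fibroblasts and perichondrium ran against the replication genes, with 7 of 8 lower in Gli1+ and a median log2 fold change of -1.07, although their sums overlapped (291 to 1127 CPM in Gli1+ and 654 to 3465 CPM in Gli1-). Among them Pdgfra, a receptor of mesenchymal cells, measured 85.4, 82.0 and 43.1 CPM in Gli1+ and 206, 355 and 264 CPM in Gli1-, with no overlap. Endothelial markers summed to 3.56 to 4.41 CPM in Gli1+ and 4.39 to 18.4 CPM in Gli1-, with the first Gli1- library the highest. All 3 of these markers that were tested had lower values in Gli1+ (median log2 fold change -1.51). The part that these library differences play in the results on replication genes was not tested.

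E2F factors bind a short GC-rich element, and the promoters of the members were read for it. RefSeq promoter sequences of build GRCm38.p6, from 250 bases before to 50 bases after the start site, matched 42 of the 50 members. The 4 octamers TTTCCCGC, TTTCGCGC, TTTGCCGC and TTTGGCGC were searched on both strands, where matches may overlap. At least 1 of them was present in 15 of these 42 promoters (35.7%), against 2.63% of 20480 promoters at 1 per gene and 4.1% of the 10507 promoters of tested genes. A match describes the sequence and is not a test of binding. In 5 members a match lay within the 120 bases before the start site. These 5 are shown because the match lies in that window upstream of the start, and the capitals mark the matched octamers. In the other 10 the match lay further upstream or after the start. Mcm6 is given in full at 120 bases, with 3 matches of which 2 overlap. The others are cut to at most 30 bases around the match, because the annotated gene body in the count table reaches into the window.
Mcm6, chr1:128359706-128359825, minus strand: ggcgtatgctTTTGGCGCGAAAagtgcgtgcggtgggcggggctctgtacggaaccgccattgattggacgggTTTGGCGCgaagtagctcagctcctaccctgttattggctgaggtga
Hells, chr19:38930917-38930946, plus strand: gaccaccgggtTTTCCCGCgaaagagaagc
Orc1, chr4:108579416-108579445, plus strand: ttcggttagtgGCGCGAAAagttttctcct
Gins3, chr8:95633507-95633536, plus strand: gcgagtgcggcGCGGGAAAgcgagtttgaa
Rfc3, chr5:151651209-151651229, minus strand: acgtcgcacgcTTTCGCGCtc
Among the members, those with a match had a median log2 fold change (Gli1+ over Gli1-) of 0.32 and 11 of 15 above 0. Those without had a median of 0.39 and 22 of 27 above 0. The element CCAAT, bound by NF-Y, was present in 61.9% of member promoters and 38.2% of all promoters. The element TTTGAA, known from mitotic genes, was present in 14.3% of member promoters, 77.4% of the promoters of a mitosis list and 16.8% of all promoters.

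Replication genes as a set stood slightly higher in Gli1+ cells, but no single member passed the test. Of the 50 members, 40 had a log2 fold change above 0, which was true of 50.1% of all genes tested. Their median log2 fold change was 0.40, against 0.0013 over all genes tested. The comparison used edgeR's quasi-likelihood test across all 14801 genes with Benjamini-Hochberg adjustment, and a gene was called at a log2 fold change over 1 in either direction with an adjusted p under 0.05. By that rule 0 members were called, as were 0% of all genes, and the adjusted p was 0.9999 for every member. At an unadjusted p under 0.05 there were 4 members, Mcm4, Hells, Uhrf1 and Chaf1a. All 4 were higher in Gli1+, where 1.43% of all genes fell in that class and 2.04% fell in the class lower in Gli1+. DESeq2 called 0.203% of all genes and 0 members, with 4.84% of all genes and 4 members at an unadjusted p under 0.05. Without the second Gli1+ library the median of the members was 0.21, against -0.10 over all genes in that fit, and 32 of the 50 were above 0. With both libraries numbered 2 left out it was 0.33, against -0.08 over all genes, and 35 of 49 tested members were above 0.

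**Figure D1:**
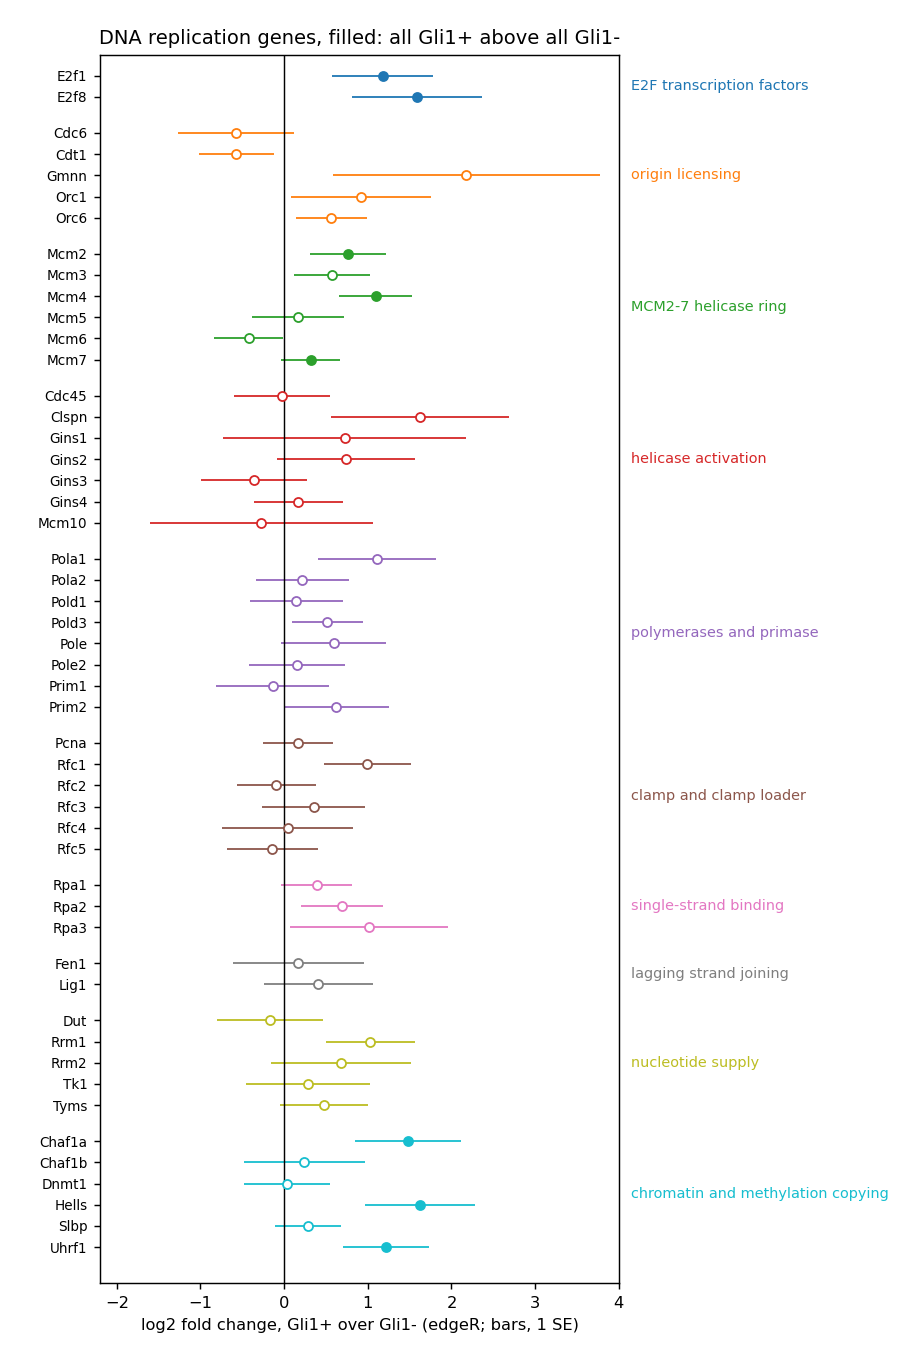
Log2 fold change of each of the 50 replication genes, Gli1+ over Gli1-, by role; points are edgeR estimates, bars are 1 standard error, and filled points mark the 8 genes whose Gli1+ libraries all exceeded all Gli1- libraries. Of the 50 points, 40 lie right of 0, and origin licensing holds both the lowest (Cdc6, -0.58) and the highest (Gmnn, 2.18).

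All Gli1+ libraries exceeded all Gli1- libraries in 8 members (E2f1, E2f8, Mcm2, Mcm4, Mcm7, Chaf1a, Hells and Uhrf1), and the reverse held for 0 members. Over all genes tested these shares were 4.04% and 4.45%. The other 42 members overlapped between groups. Same-numbered libraries deviated together (correlations 0.22, 0.72 and 0.47 for numbers 1, 2 and 3), so each number was also read as a pair. For number 1 the pairing is uncertain, because the first Gli1+ library correlated at 0.27 with the third Gli1- library. By pairs, 19 members were higher in Gli1+ in 3 of 3 pairs (17.6% of all genes) and 2 members, Cdc6 and Cdt1, were lower in 3 of 3 pairs (19.8% of all genes). With the replicate number as a block in edgeR, 6 members had an unadjusted p under 0.05, as did 8.61% of all genes, against 4 members without the block. The block added Mcm2 and Rrm1 (unadjusted p = 0.036 and 0.034 in that edgeR fit). In the blocked fit DESeq2 called 0.777% of all genes higher and 2.11% lower, and 0 members in either direction. The smallest adjusted p of a member in that blocked DESeq2 fit was 0.177, for Mcm4. In bulk samples such as these, a difference in the share of cycling cells and a difference in RNA per cycling cell cannot be told apart.

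**Figure D2:**
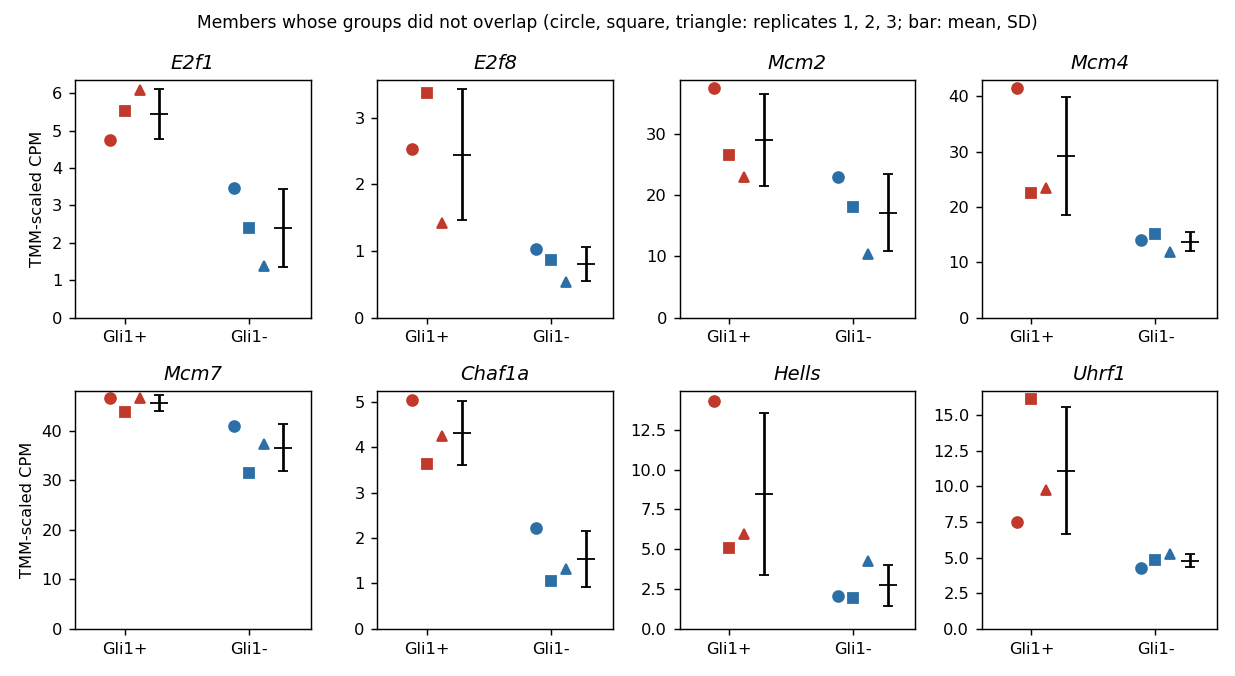
TMM-scaled CPM (linear axis from 0) of the 8 members whose groups did not overlap; circles, squares and triangles are replicates 1, 2 and 3, and the bar is the mean with 1 SD. The gap between the groups is widest relative to level in Chaf1a, and in Mcm7 all 6 libraries lie between 31.5 and 46.5 CPM.

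E2F factors are known to control the transcription of many replication genes. Levels are given throughout as CPM scaled by edgeR's TMM factors, in the order of replicates 1, 2 and 3. E2f1, an activator that drives entry into S phase, stood at 4.76, 5.53 and 6.09 CPM in Gli1+ and 3.47, 2.39 and 1.38 CPM in Gli1-. Its log2 fold change was 1.18 ± 0.61 (SE), with unadjusted p = 0.087 in edgeR's quasi-likelihood fit. The groups did not overlap, and the Gli1- libraries were the more spread. E2f8, an atypical E2F that represses E2F targets late in S phase, stood at 2.54, 3.38 and 1.42 CPM in Gli1+ and 1.03, 0.862 and 0.529 CPM in Gli1-. These rest on 10 to 55 counts per library, and the log2 fold change was 1.59 ± 0.77 (SE). Every Gli1+ value lay above every Gli1- value, with the third Gli1+ library closest to the other group.

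Among 5 licensing genes, the loading factors Cdc6 and Cdt1 stood lower in Gli1+ and the other 3 stood higher, with all 5 overlapping between groups. Cdt1, which brings the MCM ring to the origin, had the highest level per kilobase of this role, 12.5 CPM per kilobase on average and second among the members. It measured 17.7, 39.4 and 37.5 CPM in Gli1+ and 59.7, 42.6 and 38.4 CPM in Gli1-. The spread came from the replicates numbered 1, where the values were furthest apart, while the third pair was nearly equal (log2 fold change -0.57 ± 0.45 SE). With both libraries numbered 1 left out, the log2 fold change of Cdt1 was -0.08. Geminin (Gmnn), the inhibitor of CDT1, had 0, 77 and 15 counts in Gli1+ and 5, 12 and 3 counts in Gli1-. A count of 0 leaves room for up to 3 counts at this depth, counting error only, and the log2 fold change of 2.18 ± 1.59 (SE) rested mainly on the second Gli1+ library. Cdc6, an ATPase that helps to load the ring, had a log2 fold change of -0.58 ± 0.69 (SE). Orc1 and Orc6, subunits of the origin recognition complex, had values of 0.92 ± 0.84 and 0.57 ± 0.42 (SE), and both were higher in 3 of 3 pairs. Without the first Gli1+ library they had 0.34 and 0.54.

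The MCM2-7 ring was uneven between its subunits: 5 of the 6 stood higher in Gli1+ (median log2 fold change 0.45) and Mcm6 stood lower. Mcm4 measured 41.5, 22.5 and 23.5 CPM in Gli1+ and 14.1, 15.2 and 11.8 CPM in Gli1-. Its log2 fold change was 1.09 ± 0.43 (SE), the largest of the ring, with unadjusted p = 0.035 in edgeR's fit. The groups did not overlap, and the first Gli1+ library was far above the rest; without it the value was 0.73.
Mcm2 measured 37.5, 26.6 and 23.0 CPM in Gli1+ and 22.9, 18.1 and 10.4 CPM in Gli1- (log2 fold change 0.76 ± 0.46 SE). The lowest Gli1+ and the highest Gli1- library nearly met. Mcm7 measured 46.5, 43.7 and 46.5 CPM in Gli1+ and 40.9, 31.5 and 37.2 CPM in Gli1-. The groups were separate with little spread in Gli1+ and a small difference (log2 fold change 0.32 ± 0.35 SE).
Mcm6, the subunit with the highest level per kilobase of the ring (12.1 CPM per kilobase on average), measured 68.9, 35.5 and 40.0 CPM in Gli1+ and 56.1, 75.9 and 61.7 CPM in Gli1-. The groups overlapped through the first Gli1+ library, and the log2 fold change was -0.42 ± 0.41 (SE). Mcm3 and Mcm5, the remaining subunits, had log2 fold changes of 0.57 ± 0.46 and 0.17 ± 0.55 (SE). The subunits sit in the ring in equal number, but their levels per kilobase were unequal. The ratio of the most to the least abundant was 3.15 to 8.64 in the Gli1+ libraries and 3.65 to 10.4 in the Gli1- libraries. These ratios depend on the gene length that the count table gives, and the part that length plays in them was not tested. Mcm6 was the most abundant in 4 libraries and Mcm7 in the other 2, Gli1+ replicates 2 and 3. Summed over the ring the per-kilobase levels were 53.7, 38.4 and 39.8 in Gli1+ and 41.1, 35.4 and 32.7 in Gli1-, which overlapped.

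Helicase activation genes were scarce, and all 7 overlapped between groups, with 4 higher in Gli1+ and a median log2 fold change of 0.17. Gins4, a subunit of the GINS complex, was its most abundant member per kilobase in all 6 libraries. It measured 7.14, 14.4 and 9.09 CPM in Gli1+ and 8.64, 12.9 and 5.71 CPM in Gli1-. Replicates 2 were high and the groups interleaved, with a log2 fold change of 0.17 ± 0.53 (SE). Gins1 and Mcm10, which assist the ring at the fork, had 0 counts in the first Gli1+ library, where the 3-count limit again applies. Cdc45, a further part of the active helicase, had a log2 fold change of -0.03 ± 0.57 (SE). Clspn (claspin), which links the fork to checkpoint signalling, had 1.63 ± 1.06 (SE). That value rested on 52, 50 and 9 counts in Gli1+ and 3, 18 and 13 counts in Gli1-.

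Polymerase and primase genes stood at a median log2 fold change of 0.36, with 7 of 8 above 0 and all 8 overlapping. Pold3, an accessory subunit of polymerase delta and the highest of this role per kilobase, measured 28.9, 19.4 and 22.7 CPM in Gli1+ and 17.3, 11.5 and 20.9 CPM in Gli1-. It was higher in Gli1+ within each pair, and only the third Gli1- library reached the Gli1+ range (log2 fold change 0.51 ± 0.43 SE). Pola1, the catalytic subunit of polymerase alpha, had the largest value of the role, 1.11 ± 0.70 (SE). That value rested on the first Gli1+ library, at 23.5 CPM against 4.50 to 6.30 CPM in the other 5, and without it was -0.0057. Prim2, the large primase subunit, followed the same pattern, with 0.62 ± 0.63 (SE) in all libraries and -0.17 without that library. Of the role, 4 of 8 were above 0 when the first Gli1+ library was left out.

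The clamp and its loader gave a median log2 fold change of 0.10, the lowest of any role, with 4 of 6 above 0 and all 6 overlapping. Pcna, the ring that holds polymerase on DNA, was the most abundant of the 50 per kilobase at 53.1 CPM per kilobase. It measured 84.9, 181 and 138 CPM in Gli1+ and 106, 139 and 115 CPM in Gli1-. The Gli1+ libraries were both the lowest and the highest, so the groups lay over each other (0.17 ± 0.42 SE). A copy of this gene, Pcna-ps2, had 1282 counts over the 6 libraries against 13505 for Pcna, and reads shared between the copies cannot be assigned with certainty. Rfc1, the large subunit of the loader, had 82.6 CPM in the first Gli1+ library and 20.2 to 35.3 CPM elsewhere. Its log2 fold change was 0.99 ± 0.52 (SE), and 0.30 without that library.

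All 3 subunits of replication protein A, which coats single-stranded DNA, stood higher in Gli1+, with overlap in each. Rpa1, the large subunit, measured 46.1, 20.7 and 35.5 CPM in Gli1+ and 28.9, 26.5 and 22.9 CPM in Gli1-. The second Gli1+ library was the lowest of all 6 and the first was the highest (0.39 ± 0.43 SE). Summed per kilobase over the complex, the values were 11.7, 19.2 and 19.2 in Gli1+ and 11.1, 11.5 and 9.23 in Gli1-. The sums did not overlap, although the first Gli1+ library was close to the Gli1- range. In that library Rpa3, the small subunit, was at 0.466 CPM per kilobase against 8.27 for Rpa1. Lig1, the ligase that seals the lagging strand, was the more abundant of the 2 joining genes per kilobase. It measured 2.75, 9.40 and 8.14 CPM in Gli1+ and 5.48, 6.76 and 3.02 CPM in Gli1-, with the first Gli1+ library the lowest of all. Its log2 fold change was 0.41 ± 0.65 (SE). Fen1, the flap endonuclease, had 0.17 ± 0.78 (SE), and 78.8% of its exon bases are shared with a gene on the other strand.

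Nucleotide supply genes had a median log2 fold change of 0.47, with 4 of 5 above 0 and all 5 overlapping. Dut, the dUTPase that keeps uracil out of DNA, was the most abundant per kilobase of the role. It measured 8.41, 35.2 and 14.3 CPM in Gli1+ and 17.4, 34.8 and 13.0 CPM in Gli1-. The values followed the replicate number more than the group, and both libraries numbered 2 were high (-0.17 ± 0.64 SE). Rrm1, the large subunit of ribonucleotide reductase, had 1.03 ± 0.53 (SE) and was higher in 3 of 3 pairs. Without the first Gli1+ library Rrm1 had 0.58. Its partner Rrm2, the subunit that limits the enzyme in cycling cells, had 0.68 ± 0.84 (SE), with 1.22 CPM in the first Gli1+ library and 11.9 CPM in the second. Tyms and Tk1, which make thymidylate by synthesis and by salvage, had 0.47 ± 0.53 and 0.28 ± 0.75 (SE).

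Genes that copy chromatin and DNA methylation behind the fork held 3 of the 4 smallest unadjusted p among the members, and all 6 stood higher in Gli1+ with a median log2 fold change of 0.75. Without the first Gli1+ library 4 of the 6 did, with Dnmt1 and Chaf1b (-0.06) below 0. Hells, a remodeller needed for DNA methylation, measured 14.3, 5.10 and 5.99 CPM in Gli1+ and 2.07, 1.92 and 4.23 CPM in Gli1-. The groups did not overlap, and the first Gli1+ library was the highest. The log2 fold change was 1.62 ± 0.66 (SE), with unadjusted p = 0.039 in edgeR's fit, and it was 0.99 without that library.
Uhrf1, which reads hemimethylated DNA and brings DNMT1 to it, measured 7.51, 16.1 and 9.72 CPM in Gli1+ and 4.29, 4.84 and 5.24 CPM in Gli1-. Here the Gli1- libraries were close together and all lay below the lowest Gli1+ library. Its log2 fold change was 1.21 ± 0.51 (SE), with unadjusted p = 0.046 in edgeR's fit.
Chaf1a, the large subunit of the histone chaperone CAF-1, measured 5.03, 3.62 and 4.25 CPM in Gli1+ and 2.22, 1.06 and 1.32 CPM in Gli1-. The groups were well apart on 16 to 95 counts per library (1.48 ± 0.64 SE, unadjusted p = 0.049 in edgeR's fit). Of its exon bases, 52.5% overlap Ubxn6 on the other strand, and whether reads were counted by strand is not given in the sources used here. Ubxn6 had a log2 fold change of -0.20.
Dnmt1, the maintenance methyltransferase, was the most abundant of this role per kilobase and did not separate the groups. It measured 89.4, 28.2 and 39.0 CPM in Gli1+ and 54.1, 37.0 and 61.9 CPM in Gli1-. The first Gli1+ library was the highest and the second the lowest, giving 0.03 ± 0.51 (SE) and -0.63 without the first. Chaf1b, the middle CAF-1 subunit, had 0.24 ± 0.73 (SE), and Slbp, which binds the stem-loop of histone transcripts, had 0.28 ± 0.40 (SE).

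**Figure D3:**
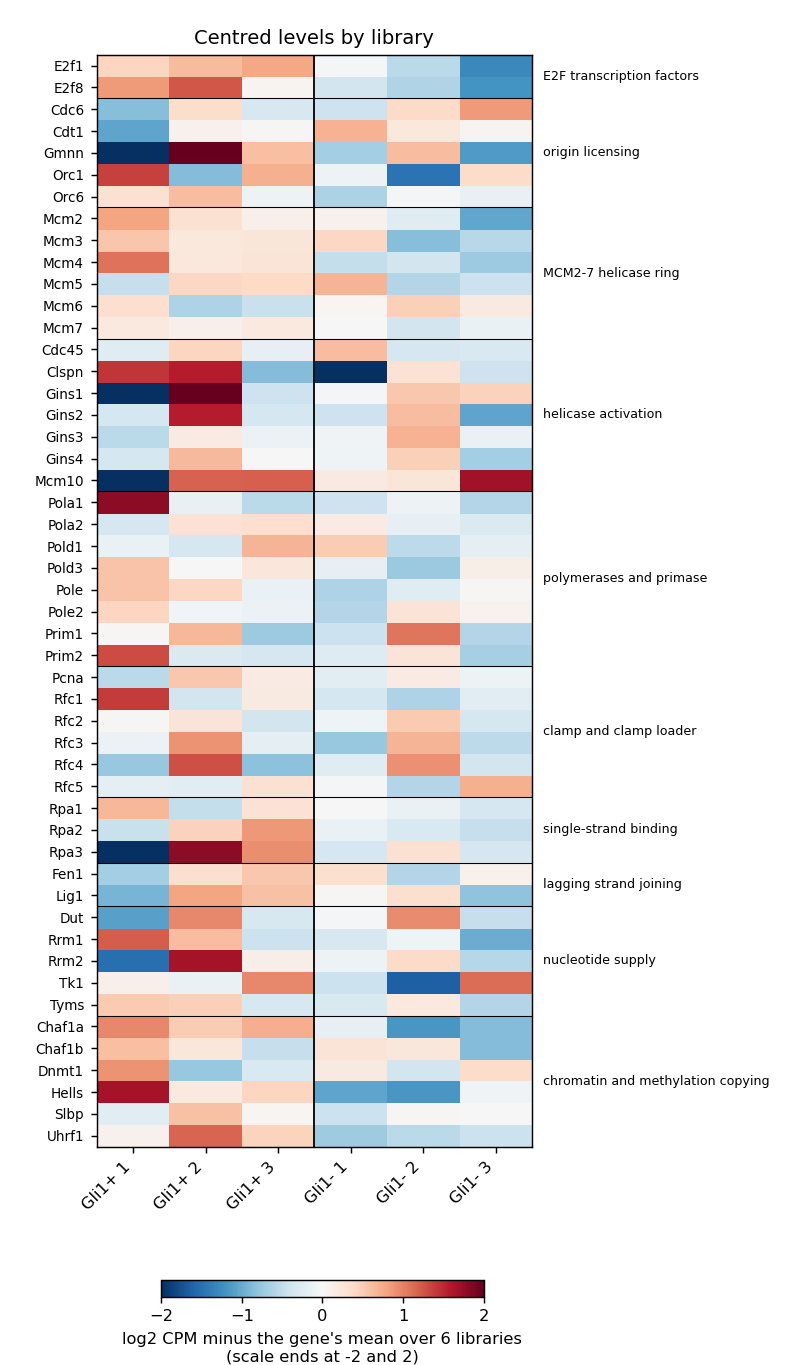
Log2 CPM of each member minus its mean over the 6 libraries, by role; columns are libraries and the colour scale ends at -2 and 2. The first Gli1+ library is the highest of the 6 for 18 members and the lowest for 13, and the second Gli1+ library is the highest for 16.

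The members did not vary together within the Gli1+ group. The first Gli1+ library was the highest of the 6 for 18 members, among them Mcm2, Mcm3, Mcm4, Mcm7, Dnmt1, Hells, Pola1 and Rfc1. It was the lowest for 13 others, among them Pcna, Dut, Rrm2, Lig1, Rpa3 and Gmnn. These sets differed in the gene length that the count table gives, with medians of 5980 and 2709 bases. The second Gli1+ library was the highest for 16 members with a median length of 2620 bases. Across the 50 members, the level in the first Gli1+ library relative to the gene's mean had a Spearman rho of 0.63 with length. In the libraries numbered 2 the rho was -0.33 for Gli1+ and -0.34 for Gli1-. The points share a library, its depth and its RNA. The same ranking over all 14801 tested genes gave 0.41, -0.42 and -0.32 in that order. The 25 shorter members, of 1136 to 4259 bases, had a median log2 fold change of 0.35 (0.42 without the first Gli1+ library). The 25 longer members, of 4268 to 11160 bases, had 0.41 (0.30 without it). The part that length plays in these values was not tested.

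**Figure D4:**
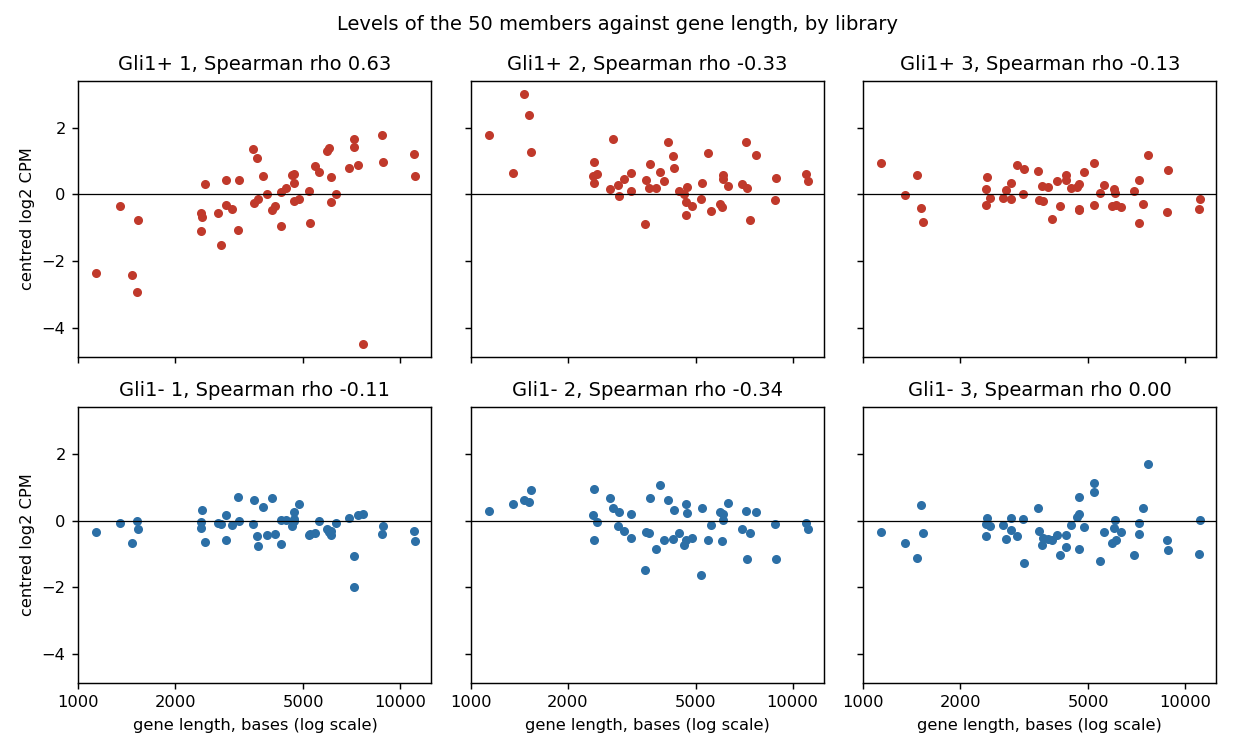
Level of each of the 50 members relative to its own mean (log2 CPM) against gene length in bases on a log axis, with 1 panel per library. The points climb with length in the first Gli1+ library (rho 0.63) and lie between -0.34 and 0.0043 in rho in the other 5.

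Summed over the 50 members, the libraries held 881, 870 and 751 CPM in Gli1+ and 683, 713 and 648 CPM in Gli1-, so that each Gli1+ sum exceeded each Gli1- sum. The median member, relative to its own mean on the log2 scale, was at 0.05, 0.41 and 0.08 in Gli1+ and at -0.15, -0.06 and -0.34 in Gli1-. The groups did not overlap on either measure, with the smallest distance between the first Gli1+ and the second Gli1- library on the log2 scale. By the mean over members instead of the median, these 2 libraries nearly met, at -0.057 and -0.071.
Further replication genes (53, of which 52 were tested) included the origin kinase subunit Dbf4 and the histone chaperone Nasp, and 40 of the 52 had a log2 fold change above 0, with a median of 0.50 and 0 called. That median was 0.26 without the first Gli1+ library. The most abundant of them by CPM were Top1, which relaxes supercoils ahead of the fork (0.52 ± 0.48 SE), and the histone chaperone subunit Ssrp1 (0.24 ± 0.40 SE). Of 24 genes for E2F and RB control, 19 were above 0 with a median of 0.46 and 0 called. Tfdp1, the DNA-binding partner of E2F1, had 0.38 ± 0.51 (SE), and E2f4, a factor of resting cells, had 0.34 ± 0.58 (SE).
A mitosis list of 35 genes, of which 32 were tested, had all 32 above 0 and a median of 1.504, with 0 called. This median depended on the second Gli1+ library, the highest of the 6 for 29 of the 35, and was 0.08 without it. With both libraries numbered 2 left out the median was 0.76, and with the replicate block in edgeR it was 1.17. The groups were separate in 6 of the 32, all higher in Gli1+ (4.04% of all genes). By pairs, 21 of the 32 were higher in 3 of 3 (17.6% of all genes). These counts were 6 and 23 of 52 for the further replication genes, and 4 and 13 of 24 for E2F and RB control. The most abundant by CPM were the condensin subunit Smc4 (0.47 ± 0.63 SE), the spindle factor Tpx2 (1.30 ± 0.53 SE), Mki67 and the condensin subunit Ncapd2 (0.82 ± 0.46 SE). Mki67, a marker of cycling cells, measured 23.1, 22.3 and 15.2 CPM in Gli1+ and 4.96, 3.58 and 6.19 CPM in Gli1-. Its groups did not overlap, and the log2 fold change was 2.04 ± 0.47 (SE) with unadjusted p = 0.0025 in edgeR's fit.

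**Figure D5:**
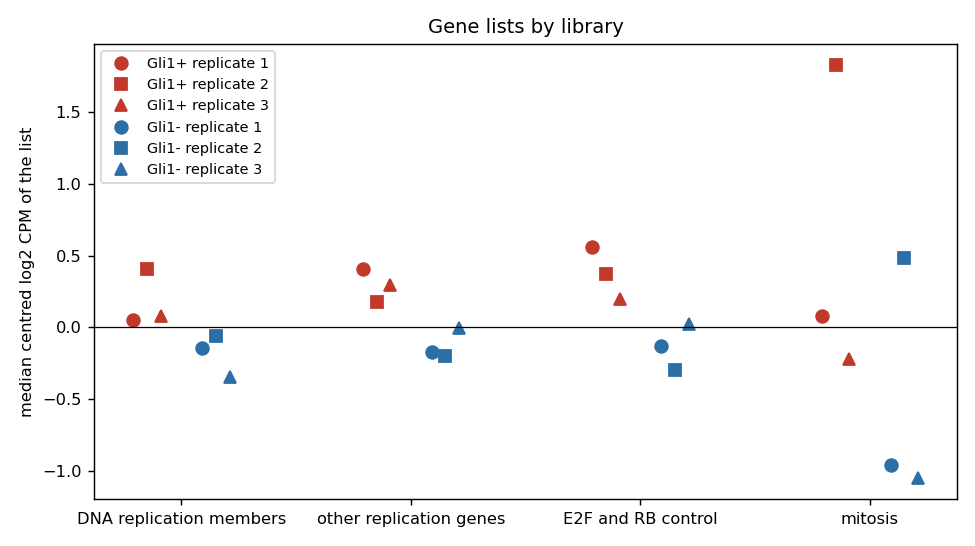
Median level of 4 gene lists in each library, on the log2 CPM scale after subtracting every gene's 6-library mean; circles, squares and triangles are replicates 1, 2 and 3. For the replication members the Gli1+ medians lie between 0.05 and 0.41 and the Gli1- medians between -0.34 and -0.06, and for mitosis the second Gli1+ library stands at 1.83.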

How the data were processed

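The authors' deposited file holds raw read counts per gene for all 6 libraries, made from poly-A RNA. The submitters' processing notes name HISAT2 2.0.5, featureCounts 1.5.0-p3 and build mm10; the annotation and strand setting are not given in the sources used here. The members and gene lists were chosen with earlier results of these data known. Counts were tested with edgeR 4.0.16 (R 4.3.3; TMM scaling, filterByExpr with a minimum count of 10, quasi-likelihood test, Benjamini-Hochberg over 14801 genes); the script was tested on simulated data. SE is the absolute log2 fold change divided by the square root of F. The paper compares Gli1+ cells with Gli1- cells taken from the same mice. Which libraries share mice is not given in the sources used here, and the main fit takes no account of shared mice. Replicates are stated by the study to be biological. Their numbers are shared by the groups, and same-numbered libraries deviated together (correlations 0.22, 0.72 and 0.47 for numbers 1, 2 and 3; of the crossed combinations, Gli1+ 1 with Gli1- 3 gave 0.27 and Gli1+ 3 with Gli1- 1 gave 0.11, and the others were below 0). Every same-numbered correlation exceeded 0.1, so the numbers were taken as pairs, although the crossed values of 0.27 and 0.11 exceeded it too. A fit with the replicate block was an alternative, besides RLE size factors, other filters, DESeq2 1.42.0, limma-voom 3.58.1 and leaving out each library. Leaving out both libraries of a number was added after seeing the data. Full values are given for members with separate groups, with an unadjusted p under 0.05, or highest per kilobase in their role, and for others where a library decides the value. Library values of Pola1, Rfc1, Rrm2, Rpa3, Gmnn and Clspn, and the genes Ubxn6, Pcna-ps2, Pdgfra, Dbf4 and Nasp, were chosen after their values were seen. Level per kilobase is CPM divided by the gene length in kilobases of the table. The biological coefficient of variation was 0.66, which limits what 3 libraries per group can show. Of the table's gene entries, 98.3% had the coordinates of GENCODE M21, including 49 of the 50 members (not Pola2). The sequences are RefSeq promoters of GRCm38.p6.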

Additional observations from a re-analysis of the deposited data

How the results depend on the processing

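No member was called under any of the 13 other settings or the 3 added after seeing the data. The number of members above 0 ran from 32 to 41 when 1 library was left out. The median log2 fold change of the members, 0.40, ran from 0.21 (without the second Gli1+ library) to 0.53 (without the second Gli1- library). With the replicate block in edgeR it was 0.32 with 38 of 50 above 0, and 6 members instead of 4 had an unadjusted p under 0.05, while over all genes these rose from 514 to 1274; the block changed no call. Of 272 values for the 17 fully described members, 16 changed sign, in 5 genes. Dnmt1 (0.03) became -0.0245 with no filter, -0.11 with limma-voom, -0.12 and -0.13 with the replicate block in edgeR and DESeq2, and -0.56 without both libraries numbered 1, which also gave 0.0459 for Dut (-0.17). Pcna became -0.0181 without both libraries numbered 2, and Lig1 -0.0074 without both numbered 3. Leaving out 1 library gave -0.63 to 0.31 for Dnmt1, -0.95 to 0.32 for Dut, -0.17 to 0.47 for Gins4 and -0.11 to 0.39 for Pcna. The cause was not tested. Members under about 20 counts in a library, such as Gmnn, Clspn, Chaf1a and E2f8, are limited by these low counts. Library totals were alike, but the first Gli1+ library had counts for 15000 genes, against 20666 to 23360 in the others. The part that this plays in the low counts was not tested.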
